A study of Sus scrofa with 6 samples.

Results

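The immediate early genes described here are FOS, FOSB, JUN, JUNB, EGR1, ATF3, MYC, IER2, NR4A1 and NR4A3, 10 genes chosen by their symbols. The files held transcripts of 9 of the 10. JUN had no transcript row among those analysed here and was left out. FOS, FOSB, JUNB, EGR1, ATF3, MYC, NR4A1 and NR4A3 are listed as protein-coding, and these 8 were tested among 19679 genes. The only transcript of IER2 is listed as a lncRNA, so IER2 was tested in a separate fit over 29159 gene IDs of every class that passed the same filter.

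RNA came from the longissimus thoracis (LT), a muscle of the back, and the semitendinosus (ST), a muscle of the hind limb, of 3 Min pigs, a Chinese breed. The animals were wild type, 30 weeks old and, as far as the labels say, untreated. Each muscle gave 3 libraries of rRNA-depleted RNA, and LT and ST libraries with the same number came from the same pig. How the animals were killed, and how long the muscles stood before RNA isolation, is not given in the sources used here.

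Immediate early genes are transcribed within minutes of a stimulus, from factors that are already present in the cell. Many encode transcription factors, and their mRNAs are short-lived, so that a level reflects the recent past of the tissue. In skeletal muscle they are known to respond to contraction, stretch, injury and lack of oxygen. The comparison asked whether the level of these genes differed between LT and ST, and how far it differed among pigs within a muscle. Levels are given in FPKM (a fragment count corrected for transcript length and for library size), summed over the transcripts of a gene ID. Fragment numbers were not used here, and intervals for counting error could not be given. In whole muscle, a change in the number of cells of a type and a change in RNA per cell cannot be told apart.

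One library, ST replicate 2, stood apart from its label. The fast-fibre troponin gene TNNT3 was at 8127, 7992 and 5185 FPKM in LT, and at 1046, 4518 and 161 FPKM in ST replicates 1, 2 and 3. The slow-fibre troponin gene TNNT1 was at 348, 207 and 246 FPKM in LT, and at 1746, 382 and 2079 FPKM in ST. On both genes ST replicate 2 lay nearer to LT than the other ST libraries did. Over all genes tested, the log2 levels of ST replicate 2 correlated most closely with LT replicate 2 (Pearson r = 0.960 across genes). The value was 0.953 with both LT replicate 1 and ST replicate 1, 0.950 with LT replicate 3 and 0.949 with ST replicate 3. LT replicate 2 came from the same pig, so likeness to LT and likeness within a pig cannot be told apart in the highest value. Genes are not independent replicates, and these values are descriptive. Of 11 endothelial markers, 9 were above every LT library in every ST library, ST replicate 2 included, against 16.7% of all genes. On the most abundant, PECAM1, ST replicate 2 (75.5 FPKM) was near ST replicates 1 and 3 (90.6 and 78.5 FPKM), with LT at 25.0 to 40.4 FPKM. On others it lay near or within LT, as for KDR, at 7.99 FPKM against 25.5 and 12.1 FPKM in ST replicates 1 and 3 and up to 9.14 FPKM in LT. EMCN (5.91 FPKM, against 12.1 and 10.6 FPKM) and TEK (14.3 FPKM, against 27.4 and 20.6 FPKM) were also low there, with LT up to 5.28 and 13.7 FPKM. These markers were picked after their values were seen. The results for the immediate early genes are therefore given with and without it.

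FOS was the most abundant of the 9 genes. The gene spans chromosome 7, 98449349 to 98455554, on the plus strand of the Sscrofa11.1 build, and encodes a protein that pairs with JUN proteins in the AP-1 transcription factor. It was at 125.5, 80.9 and 90.5 FPKM in LT and at 126.6, 352 and 120 FPKM in ST. ST replicate 2 was far above the other libraries, ST replicates 1 and 3 lay close to LT replicate 1, and the muscles overlapped. The mean was 99.0 ± 23.5 FPKM (SD, n = 3) in LT and 199.5 ± 132 FPKM (SD, n = 3) in ST, and the log2 fold change of ST against LT was 0.85 with a standard error of 0.42 (adjusted p = 0.314, limma). With ST replicate 2 left out the log2 fold change was 0.34 (adjusted p = 0.407, limma).

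FOSB (chromosome 6, 51837719 to 51844531, plus strand), a close relative of FOS that also pairs with JUN proteins, was at 12.3, 5.41 and 4.37 FPKM in LT and at 20.0, 14.97 and 4.02 FPKM in ST. It was the only one of the 8 tested genes with its highest FPKM in ST replicate 1, and its lowest value was also in ST. The log2 fold change was 0.68 with a standard error of 0.61 (adjusted p = 0.585, limma), and 0.44 without ST replicate 2. It was 0.23 without ST replicate 1, 1.12 without LT replicate 1 and 1.37 without ST replicate 3, and was not called in any of these. JUNB (chromosome 2, 66214594 to 66215637, minus strand), a JUN family member that restrains some AP-1 targets, was at 109, 84.5 and 71.9 FPKM in LT and at 56.8, 129 and 75.3 FPKM in ST. The ST libraries held both the highest and the lowest JUNB level, and the means were 88.4 ± 18.8 FPKM in LT and 87.0 ± 37.5 FPKM in ST (SD, n = 3). Its log2 fold change was -0.09 with a standard error of 0.32 (adjusted p = 0.914, limma), and -0.41 without ST replicate 2. It was positive without LT replicate 1 (0.07) and without ST replicate 1 (0.18).

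ATF3 showed the largest difference between the muscles among the 9 genes. It lies on chromosome 9, 130770428 to 130787462, on the minus strand, and encodes a stress-responsive factor of the same leucine zipper superfamily as FOS and JUN. Its level was 21.1, 14.2 and 9.62 FPKM in LT and 32.5, 414 and 41.3 FPKM in ST. All ST libraries lay above all LT libraries, and ST replicate 2 was at 11.2 times the mean of the other ST libraries. The log2 fold change was 2.52 with a standard error of 0.87 (p = 0.0195, adjusted p = 0.172, limma), and the two-sided exact permutation p was 0.1, the smallest that 3 against 3 libraries allow. Without ST replicate 2 the log2 fold change was 1.36 with a standard error of 0.32 (adjusted p = 0.0562, limma). ATF3 was higher in ST in each pig, by 0.62, 4.86 and 2.09 on the log2 scale in pigs 1, 2 and 3.

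**Figure D1:**
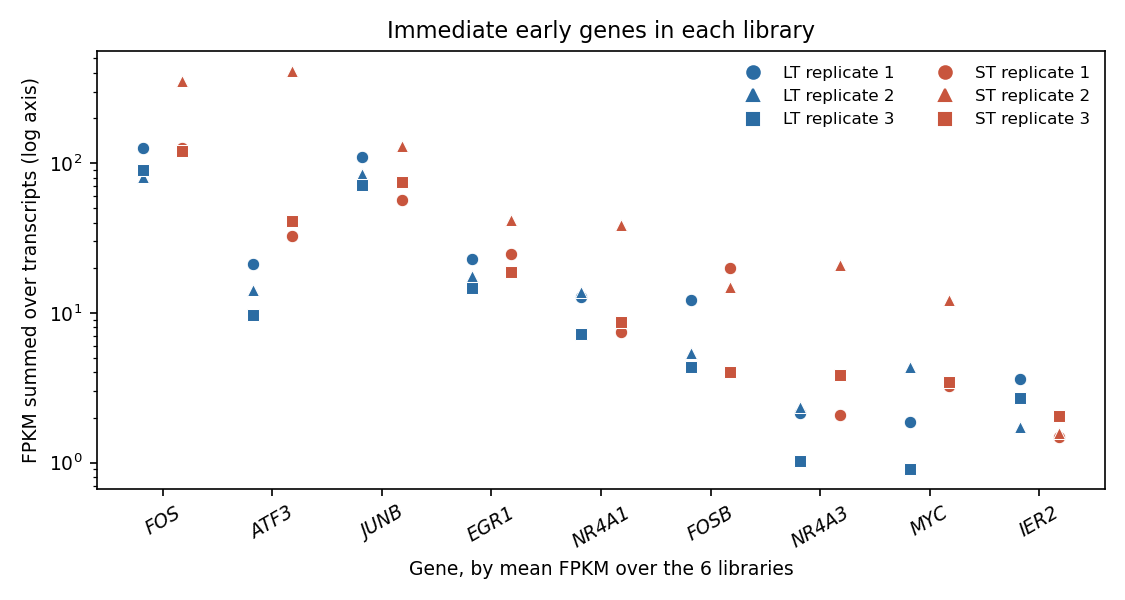
Level of the 9 immediate early genes in each of the 6 libraries, as FPKM on a log axis, with LT in blue, ST in red and a marker shape for each pig. ST replicate 2 (red triangle) was the highest library for 7 of the 8 tested genes, and ATF3 was the only gene whose ST libraries all lay above all LT libraries.

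EGR1 (chromosome 2, 140441421 to 140445296, plus strand), a zinc finger factor induced by growth factors and mechanical load, was at 22.9, 17.7 and 14.7 FPKM in LT and at 24.8, 42.0 and 18.6 FPKM in ST. ST was above LT in each pig, by 0.12, 1.24 and 0.34 on the log2 scale, but LT replicate 1 lay above ST replicate 3. The log2 fold change was 0.56 with a standard error of 0.31 (adjusted p = 0.367, limma), and 0.24 without ST replicate 2.

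NR4A1 and NR4A3 encode orphan nuclear receptors that respond to exercise and to adrenergic signals in muscle. NR4A1 (chromosome 5, 17385390 to 17408514, plus strand) was at 12.8, 13.7 and 7.25 FPKM in LT and at 7.45, 38.4 and 8.63 FPKM in ST. ST replicates 1 and 3 lay below LT replicates 1 and 2, and ST replicate 2 lay above all others. The log2 fold change was 0.32 with a standard error of 0.59 (adjusted p = 0.814, limma), and it was -0.43 without ST replicate 2 (adjusted p = 0.420, limma). NR4A3 (chromosome 1, 241569905 to 241611734, plus strand) was at 2.15, 2.37 and 1.03 FPKM in LT and at 2.07, 20.9 and 3.82 FPKM in ST. Here too ST replicate 1 lay within the LT range while ST replicate 2 was 7.10 times the mean of the other ST libraries. The NR4A3 log2 fold change was 1.61 with a standard error of 0.75 (adjusted p = 0.295, limma), and 0.66 without ST replicate 2 (adjusted p = 0.373, limma).

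MYC (chromosome 4, 12455119 to 12461078, minus strand), which encodes a factor for growth and ribosome production, was at 1.88, 4.35 and 0.911 FPKM in LT and at 3.25, 12.1 and 3.43 FPKM in ST. Across pigs the muscles overlapped, because LT replicate 2 lay above ST replicates 1 and 3. Within each pig ST was higher, by 0.76, 1.46 and 1.81 on the log2 scale. The log2 fold change was 1.34 with a standard error of 0.63 without regard to the pig (adjusted p = 0.298, limma). With the pig as a replicate block the standard error fell to 0.24 (adjusted p = 0.0320, limma). Without ST replicate 2 and with no block the log2 fold change was 0.73 (adjusted p = 0.460, limma), and with pig 2 left out of the blocked fit it was 1.28 (adjusted p = 0.0324, limma).

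IER2 (chromosome 2, 65909646 to 65911423, plus strand) encodes a small nuclear protein. It was at 3.60, 1.74 and 2.69 FPKM in LT and at 1.49, 1.56 and 2.03 FPKM in ST. The highest level was in LT replicate 1, ST was below LT in each pig, and the muscles overlapped in 1 place, where ST replicate 3 lay above LT replicate 2. In the fit over all gene IDs the log2 fold change was -0.58 with a standard error of 0.29 (adjusted p = 0.368, limma), and -0.53 without ST replicate 2. That library was at 0.888 times the mean of the other ST libraries, so IER2 did not share the high value of that library.

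The order of the genes by mean level differed between the muscles. In LT the ranges formed 3 groups, although the middle and lowest groups nearly touched (4.37 FPKM for FOSB against 4.35 FPKM for MYC). FOS and JUNB were highest and overlapped each other, at 71.9 to 125.5 FPKM. EGR1, ATF3, NR4A1 and FOSB followed, at 4.37 to 22.9 FPKM, each overlapping the next. IER2, MYC and NR4A3 were lowest and overlapped, at 0.911 to 4.35 FPKM. In ST the order by mean was FOS, ATF3, JUNB, EGR1, NR4A1, FOSB, NR4A3, MYC and IER2. There, JUNB and EGR1 did not overlap, nor did MYC and IER2, and all other neighbours overlapped. The order of ST means without ST replicate 2 was FOS, JUNB, ATF3, EGR1, FOSB, NR4A1, MYC, NR4A3 and IER2, and the ATF3 mean was 36.9 FPKM in place of 163 FPKM. Over the 6 libraries the mean FPKM of FOS was above that of 98.6% of the genes tested, that of JUNB above 97.7% and that of MYC above 68.4%.

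None of the 8 tested genes was called different between the muscles by limma, which took an adjusted p under 0.05 together with a log2 fold change beyond 1 in either direction, where 0.579% of all 19679 genes were called. The calls over all genes were 81 higher and 33 lower in ST, and with quantile normalization 62 were called, 33 of them higher. At an unadjusted p under 0.05, 1 of the 8 (ATF3) was higher in ST, against 13.1% of all genes. The two-sided exact permutation p of the other 7 was between 0.2 and 1. With the pig as a block, 1 of the 8 (MYC) was called, against 4.26% of all genes. Without ST replicate 2, 0 of the 8 were called, against 5.15% of all genes, and JUNB and NR4A1 were the genes with a lower mean level in ST. With the block and without pig 2, ATF3 and MYC were called, against 7.59% of all genes.

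Directions were mixed in their repeatability. ST was above LT in all 3 pigs for FOS, ATF3, EGR1 and MYC, 4 of the 8, against 32.1% of all genes tested. All ST libraries lay above all LT libraries for 1 of the 8 (ATF3), against 16.7% of all genes. The median log2 fold change of the 8 genes was 0.76, and that of all genes tested was 0.13. Leaving out ST replicate 2 gave 0.39 and 0.17. By pig, the median log2 difference of the 8 genes was 0.07 in pig 1, 1.47 in pig 2 and 0.37 in pig 3, against 0.21, 0.10 and 0.06 for all genes. With its sign, the difference was highest in pig 2 for 7 of the 8 genes and in pig 3 for MYC. JUNB was furthest from 0 in pig 1, at -0.94, and in pig 1 the median of the 8 genes lay below that of all genes.

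**Figure D2:**
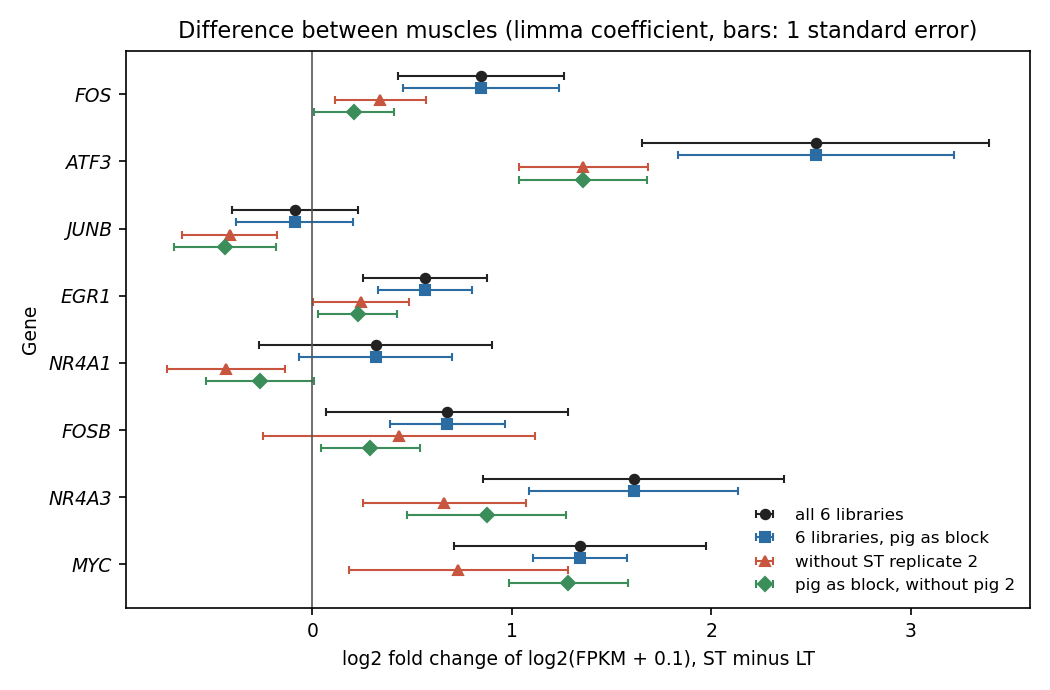
Log2 fold change of ST against LT for the 8 tested genes under 4 limma fits, on log2(FPKM + 0.1), with bars of 1 standard error. Without ST replicate 2 every coefficient moved toward lower values, and the MYC error was smaller with the pig as a block than without it.

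The spread among pigs was wide for these genes. The median SD of their log2 levels was 0.53 in LT and 1.14 in ST, against 0.28 and 0.32 for all genes tested. Without ST replicate 2 the median SD in ST was 0.26, against 0.20 for all genes. ST replicates 1 and 3 agreed most closely for MYC (3.25 and 3.43 FPKM) and FOS (126.6 and 120 FPKM), and least for FOSB (20.0 and 4.02 FPKM). The SD was larger in ST than in LT for 7 of the 8 genes, against 55.6% of all genes. This turned round without ST replicate 2, with the SD in ST below that in LT for 7 of the 8, against 61.1% of all genes. In LT the lowest library was usually replicate 3. LT replicate 3 held the lowest of all 6 values for 5 of the 8 genes (ATF3, EGR1, NR4A1, NR4A3 and MYC), against 14.5% of all genes.

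ST replicate 2 was the highest of the 6 libraries for 7 of the 8 genes, against 14.5% of all genes tested. It lay above the mean log2 level of ST replicates 1 and 3 by over 1 for FOS, ATF3, NR4A1, NR4A3 and MYC, 5 of the 8, against 5.53% of all genes. In FPKM it was 4.77 times the mean of the other ST libraries for NR4A1, 3.62 times for MYC, 2.85 times for FOS, 1.95 times for JUNB, 1.93 times for EGR1 and 1.25 times for FOSB. The LT library of the same pig was high only for some of the genes. LT replicate 2 was the lowest of the 6 for FOS, and the highest LT library only for NR4A1, NR4A3 and MYC. For MYC (4.35 FPKM) and NR4A1 (13.7 FPKM) it lay above every library but ST replicate 2.

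The levels of ATF3 and FOSB rested on different transcripts in different libraries. ATF3 has 4 transcripts, and the one of 2113 bases and 5 exons made up 92.7% of the ATF3 FPKM in ST replicate 2 and from 65.0% to 80.3% in the other libraries except LT replicate 2, where it made up 15.1%. In LT replicate 2 a transcript of 3956 bases carried 56.4%. FOSB was carried by a transcript of 3700 bases in 5 libraries, with 70.5% to 84.5% of its FPKM. In ST replicate 1 a transcript of 1095 bases carried 83.0%. FPKM divides by length, so a short transcript gives a high value for few fragments. Counted as fragments relative to library size (FPKM multiplied by length in kilobases), FOSB was at 41.2, 17.9 and 13.9 in LT and at 30.1, 51.3 and 14.0 in ST. On that scale ST replicate 2, not ST replicate 1, was the highest library for FOSB as for the other 7 tested genes. With the most abundant transcript alone, the FOSB log2 fold change was -0.06 (adjusted p = 0.974, limma).

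**Figure D3:**
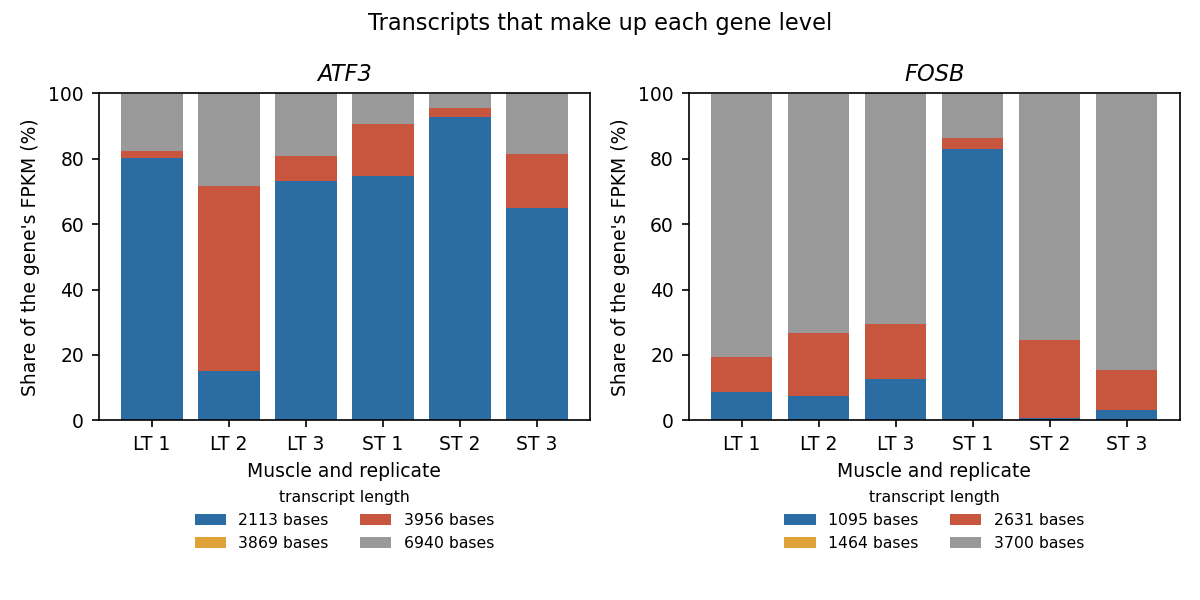
Share of the FPKM of ATF3 (left) and FOSB (right) that each annotated transcript carried, in percent, for the 6 libraries, with transcripts named by their length. LT replicate 2 stood out for ATF3, with 15.1% on the 2113-base transcript, and ST replicate 1 for FOSB, with 83.0% on the 1095-base transcript.

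FOS, JUNB, EGR1, NR4A1, NR4A3 and MYC each rested on 1 main transcript. The 4871-base transcript carried 90.0% to 97.6% of FOS, and JUNB, EGR1 and NR4A1 have a single transcript each. Unannotated transcripts on the opposite strand overlapped 7 of the 8 tested genes, all but JUNB. At FOS they summed to 19.0, 10.6 and 14.9 FPKM in LT and to 19.3, 46.3 and 15.5 FPKM in ST, which was 12.9% to 16.5% of the FOS level in every library. Their level was highest and lowest in the same libraries as that of FOS. The library kit keeps the strand, but the strand setting of the assembly is not given in the sources used here, and whether fragments of one strand entered the level of the other was not tested. At ATF3 the opposite strand reached 4.03% to 11.0% of the gene level, and at NR4A1 10.8% to 20.0%. At MYC it reached 4.41% to 22.5%. On the strand of ATF3 itself, 2 further unannotated transcripts lay within the longer span that RefSeq gives the gene. They summed to 5.69 FPKM in ST replicate 2 and to at most 0.0861 FPKM in any other library, and are not part of the ATF3 level. JUNB lies within the span of HOOK2, an annotated gene of the opposite strand, which was at 2.04 to 4.11 FPKM.

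Other immediate early genes were read from fixed lists. Of 24 other immediate early transcription factors, 21 were tested and 0 were called (limma), where 0.579% of all genes were. At an unadjusted p under 0.05, 10 were higher in ST and 0 lower, against 13.1% of all genes higher. ST replicate 2 was the highest library for 18 of the 21, against 14.5% of all genes. The 3 most abundant were IER5, ID1 and CEBPB. IER5, which regulates the heat shock factor HSF1, was at 32.99, 25.3 and 27.5 FPKM in LT and at 53.7, 215 and 47.7 FPKM in ST. Its ST libraries all lay above LT, and the difference was 1.53 on the log2 scale (standard error 0.52, adjusted p = 0.169, limma) and 0.83 without ST replicate 2. ID1, an inhibitor of basic helix-loop-helix factors, was at 46.4, 26.9 and 21.9 FPKM in LT and at 106, 76.5 and 116 FPKM in ST. It differed from IER5 in that ST replicate 2 was the lowest ST library. Its log2 fold change was 1.69 with a standard error of 0.30 (adjusted p = 0.0582, limma), and it was called without ST replicate 2 (1.87, adjusted p = 0.0207, limma). CEBPB, a leucine zipper factor of inflammation and adipogenesis, overlapped between the muscles (log2 fold change 0.40, adjusted p = 0.536, limma). The blocked fit called 5 of the 21, all higher in ST, against 4.26% of all genes, and without ST replicate 2, 3 were called, against 5.15%.

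Of the 36 other immediate early genes of signalling, RNA turnover, matrix and survival, 34 were tested and 1 was called, against 0.579% of all genes. This was SPRY4, an inhibitor of receptor tyrosine kinase signalling, at 0.274, 0.362 and 0.185 FPKM in LT and at 2.98, 2.11 and 2.0 FPKM in ST. The muscles were well apart, and ST replicate 2 lay within the ST range. The log2 fold change of SPRY4 was 2.73 with a standard error of 0.28 (adjusted p = 0.0109, limma), and 2.79 without ST replicate 2. DUSP1, the phosphatase that switches off MAP kinases, was the most abundant of the list, at 222, 220 and 175 FPKM in LT and at 230, 401 and 220 FPKM in ST. Its level was higher than that of FOS in every library, and the muscles overlapped (log2 fold change 0.42, adjusted p = 0.459, limma, and 0.14 without ST replicate 2). GADD45G, a stress-induced growth arrest gene, was at 36.8, 37.1 and 53.1 FPKM in LT and at 114, 186 and 47.5 FPKM in ST (log2 fold change 1.26, adjusted p = 0.186, limma, and 0.82 without ST replicate 2). MCL1, a survival factor of the BCL2 family, was listed at 0 in ST replicate 2 and at 6.17 to 211 FPKM elsewhere, and no fold was read from it. ST replicate 2 was the highest library for 23 of the 34 genes, against 14.5% of all genes. The blocked fit called 4 of the 34, all higher in ST, against 4.26% of all genes, and 1 was called without ST replicate 2, against 5.15%.

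**Figure D4:**
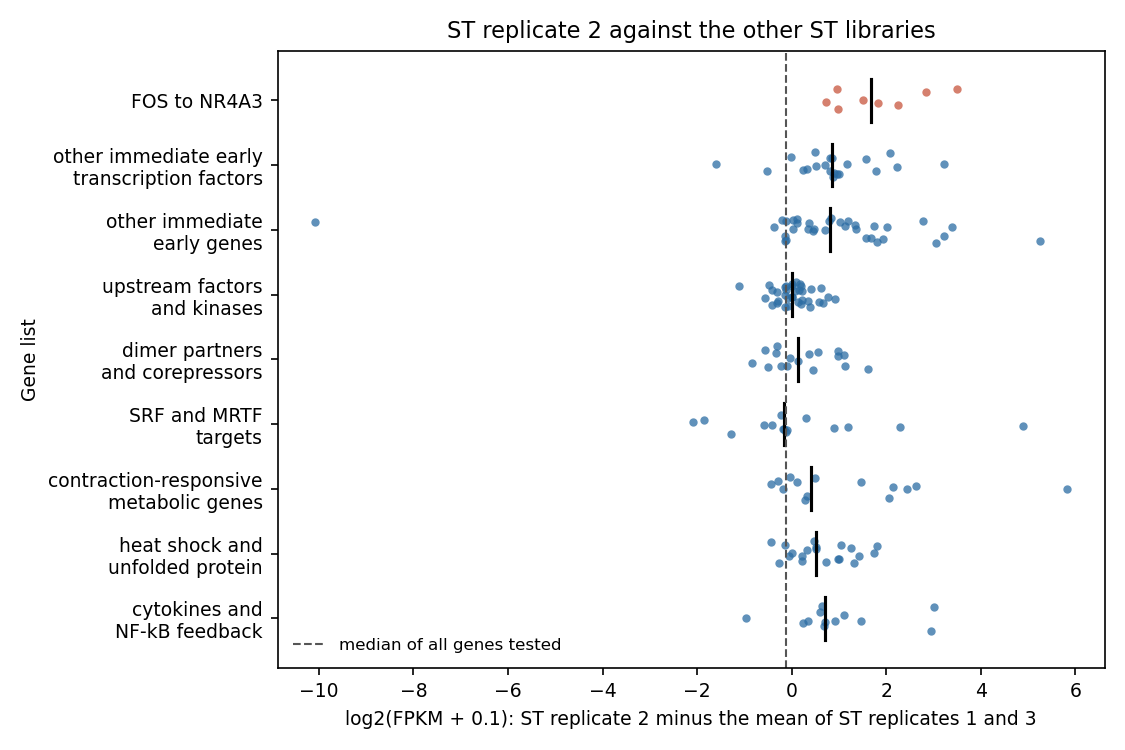
Difference in log2(FPKM + 0.1) between ST replicate 2 and the mean of ST replicates 1 and 3 for each gene of 9 lists, with a bar at each median and a dashed line at the median of all genes tested (-0.13). The median was 1.67 for the 8 tested genes, 0.85 and 0.81 for the other immediate early lists, and 0.01 for upstream factors and kinases. It was 0.70 for cytokine and NF-kB feedback genes, 0.51 for heat shock and unfolded protein genes and 0.41 for contraction-responsive metabolic genes. For dimer partners and corepressors it was 0.14, and for SRF and MRTF targets -0.16.

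The genes upstream of this response showed no such gap. Of 36 tested upstream factors and kinases, 0 were called (limma), against 0.579% of all genes. Before adjustment 5 had a p under 0.05 with a higher level in ST and 4 with a lower one, against 13.1% and 5.88% of all genes. ST replicate 2 was the highest library for 9 of them, against 14.5% of all genes, and 0 lay above the other ST libraries by over 1 on the log2 scale, against 5.53%. Among the most abundant were MAPK12 and CAMK2D. MAPK12, the p38 gamma kinase of muscle, was at 85.4, 64.2 and 82.1 FPKM in LT and at 91.9, 72.4 and 111 FPKM in ST, with overlap. CAMK2D, a calcium-dependent kinase, was at 52.4 to 65.8 FPKM in LT and at 31.4 to 43.9 FPKM in ST (log2 fold change -0.59, adjusted p = 0.165, limma).

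Of the 17 tested dimer partners and corepressors, 0 were called (limma), against 0.579% of all genes. At that unadjusted level 3 of them were higher in ST and 2 lower, against 13.1% and 5.88% of all genes. DDIT3, a leucine zipper factor of the unfolded protein response, was the most abundant, at 13.6, 11.7 and 13.8 FPKM in LT and at 22.3, 106 and 53.9 FPKM in ST. Every ST library lay above LT, and ST replicate 2 was the highest (log2 fold change 1.95, adjusted p = 0.0949, limma). It was called in the blocked fit (adjusted p = 0.0468, limma), and without ST replicate 2 its log2 fold change was 1.41 (adjusted p = 0.0617, limma). RXRG, a retinoid receptor that pairs with nuclear receptors, was at 36.2, 37.2 and 10.7 FPKM in LT and at 7.49, 8.07 and 3.96 FPKM in ST (log2 fold change -1.95, adjusted p = 0.0999, limma, and 0.0151 with the block). RXRA was at 13.8 to 17.8 FPKM in LT and at 8.46 to 12.6 FPKM in ST (log2 fold change -0.61, adjusted p = 0.165, limma).

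Genes that answer to similar stimuli were tested next. Of 15 tested SRF and MRTF targets of muscle, 1 was called, against 0.579% of all genes. LMOD2, which elongates thin filaments, was at 121, 90.6 and 192 FPKM in LT and at 493, 458 and 555 FPKM in ST (log2 fold change 1.96, standard error 0.29, adjusted p = 0.0399, limma). The ST libraries were close together, with no high value in replicate 2. Over the list, ST replicate 2 was the highest library for 3 of the 15, against 14.5% of all genes. It lay above the mean log2 level of ST replicates 1 and 3 by over 1 for 3 as well, against 5.53%. TPM1, the fast-fibre alpha tropomyosin, was listed at lower levels in ST (843, 2266 and 251 FPKM against 4596 to 5087 FPKM in LT), and actin ACTA1 overlapped, at 1811 to 3025 FPKM in LT and at 1768 to 2899 FPKM in ST. ACTA1 defines skeletal muscle, and it was at a high level in all 6 libraries. In the blocked fit 4 of the 15 were called, 3 of them higher in ST, against 4.26% of all genes.

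Of 14 contraction-responsive metabolic genes, VEGFA and IRS2 were called, against 0.579% of all genes. VEGFA, the angiogenic growth factor, was at 16.7, 10.9 and 13.7 FPKM in LT and at 42.4, 40.6 and 41.0 FPKM in ST (log2 fold change 1.60, adjusted p = 0.0226, limma). IRS2, an adaptor of the insulin receptor, was at 3.89, 3.07 and 5.53 FPKM in LT and at 10.7, 13.7 and 11.8 FPKM in ST (log2 fold change 1.55, adjusted p = 0.0416, limma). Every ST library lay above every LT library for both genes, and neither stood out in ST replicate 2. Over the list, ST replicate 2 was the highest library for 3 of the 14, against 14.5% of all genes. It lay above the mean log2 level of ST replicates 1 and 3 by over 1 for 6, against 5.53%. In the blocked fit 4 of the 14 were called, 3 of them higher in ST, against 4.26% of all genes, and without ST replicate 2 the number was 5, with 3 higher, against 5.15%. The most abundant were TXNIP, PDK4 and SLC2A4. TXNIP, which restrains glucose uptake, overlapped between the muscles, as did PDK4, which slows glucose oxidation. Within each pig PDK4 was higher in ST, by 1.20, 4.88 and 1.05 on the log2 scale. It was not called in the blocked fit (log2 fold change 2.38, adjusted p = 0.0972, limma). With pig 2 left out of that fit it was called (1.12, adjusted p = 0.00966, limma). SLC2A4, the insulin-responsive glucose transporter, was at 40.8 to 47.1 FPKM in LT and at 71.2 to 102 FPKM in ST (log2 fold change 0.87, adjusted p = 0.0797, limma).

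Of 20 heat shock and unfolded protein genes, 0 were called (limma), against 0.579% of all genes. At an unadjusted p under 0.05, 4 were higher in ST, against 13.1% of all genes, and ST replicate 2 was the highest library for 11, against 14.5% of all genes. The most abundant were the small heat shock protein CRYAB (288, 289 and 1198 FPKM in LT and 803, 1352 and 1700 FPKM in ST), the constitutive chaperone HSPA8 (646 to 921 FPKM in LT and 438 to 1122 FPKM in ST) and HSPB8 (411 to 671 FPKM in LT and 302 to 887 FPKM in ST). All 3 overlapped between the muscles. The blocked fit called 1 of the 20, against 4.26% of all genes. This was the chaperone gene DNAJB1, lower in ST (log2 fold change -1.17, adjusted p = 0.0466, limma). With pig 2 left out of the blocked fit its log2 fold change was -0.89, short of the threshold. Without ST replicate 2, 0 of the 20 were called, against 5.15%. Of 12 cytokine and NF-kB feedback genes, 0 were called (limma), against 0.579% of all genes. At an unadjusted p under 0.05, 3 were higher in ST, against 13.1%. ST replicate 2 was the highest library for 8 of the 12, against 14.5% of all genes. It lay above the mean log2 level of ST replicates 1 and 3 by over 1 for 4, against 5.53%. NFKBIA, the inhibitor of NF-kB, was at 16.2, 22.0 and 27.4 FPKM in LT and at 50.0, 72.6 and 39.1 FPKM in ST, above LT in every ST library (log2 fold change 1.29, adjusted p = 0.0752, limma). Its log2 fold change without ST replicate 2 was 1.05 (adjusted p = 0.0605, limma), and with the pig as a block it was called with 1 other gene of the list, against 4.26% of all genes. The chemokine CXCL2 was at 29.5 to 33.8 FPKM in LT and at 11.0 to 28.7 FPKM in ST. The chemokine CCL2 was at 20.6, 32.0 and 5.47 FPKM in LT and at 4.03, 34.4 and 4.40 FPKM in ST, high in both muscles of pig 2.

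The 5 genes whose profile over the 6 libraries was most like the mean profile of the immediate early genes were DUSP1 (Pearson r = 0.992), an unnamed gene with the ID ENSSSCG00000044542 (0.988), the SNARE protein gene STX11 (0.985), the zinc finger factor EGR2 (0.985) and ZSWIM6 (0.979). The coefficients rest on 6 libraries, of which ST replicate 2 had by far the highest mean profile, and they are descriptive. STX11, for example, was at 0.930, 0.933 and 0.408 FPKM in LT and at 1.15, 4.20 and 0.825 FPKM in ST. EGR2 was at 1.78, 1.56 and 1.07 FPKM in LT and at 1.71, 3.05 and 1.58 FPKM in ST, far below the level of EGR1.

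Markers of other cells were read beside these levels. Of 12 endothelial markers, 11 were tested and 3 (PECAM1, CDH5 and ESAM) were called higher in ST, against 0.579% of all genes. The blocked fit called 6 of the 11, against 4.26% of all genes. Without ST replicate 2, 6 were called, against 5.15%, all higher in ST in both fits. The summed level of the list was 109, 78.4 and 94.1 FPKM in LT and 249, 169 and 207 FPKM in ST, with PECAM1 the most abundant. The endothelial sum separated the muscles, but ST replicate 2 was the lowest ST library on it. The 12 markers of macrophages and other leukocytes summed to 62.6, 77.2 and 57.2 FPKM in LT and to 59.8, 83.7 and 116 FPKM in ST. C1QA was the most abundant, and none of the 11 tested was called, against 0.579% of all genes. The highest leukocyte sum was in ST replicate 3, not in ST replicate 2. By gene, ST replicate 2 was the highest library for 5 of the 11 tested, against 14.5% of all genes. It lay above the mean log2 level of ST replicates 1 and 3 by over 1 for 0 of them, against 5.53%. Of the Schwann cell markers, led by PMP22, ST replicate 2 was the highest library for 1 of the 6 tested, against 14.5% of all genes. In that library 4 of the 6 lay above the mean log2 level of ST replicates 1 and 3 by over 1, against 5.53%. The Schwann cell markers summed to 24.3, 57.97 and 26.6 FPKM in LT and to 39.2, 44.9 and 25.0 FPKM in ST, with the highest value in LT replicate 2. Satellite cell markers, led by CDH15, were highest in ST replicate 2 for 4 of the 6 tested, against 14.5% of all genes, and summed to 14.0, 11.8 and 16.2 FPKM in LT and to 10.2, 13.6 and 8.42 FPKM in ST. None of either list was called, against 0.579% of all genes. Smooth muscle and pericyte markers, led by RGS5, summed to 215, 186 and 179 FPKM in LT and to 363, 279 and 346 FPKM in ST. Their sum separated the muscles like the endothelial sum. Of the 8, 0 were called, against 0.579% of all genes. In the blocked fit 1 of the 8 was called higher in ST, against 4.26% of all genes. Without ST replicate 2, 1 was called higher, against 5.15%. Tendon markers, led by THBS4, summed to 32.1, 35.98 and 36.6 FPKM in LT and to 63.0, 29.8 and 105.8 FPKM in ST, lowest of all in ST replicate 2. None of the 6 was called with all libraries, against 0.579% of all genes. Without ST replicate 2, 3 were called higher in ST, against 5.15% of all genes. Of 7 adipocyte markers 1 (LPL) was called higher in ST, against 0.579% of all genes, and the list summed to 208 to 314 FPKM in LT and 297 to 358 FPKM in ST, with LPL the most abundant. The other 6 had a lower mean log2 level in ST, and the median log2 fold change of the 7 was -0.71, against 0.13 for all genes. Fibroblast markers, led by COL3A1, summed to 1475, 1187 and 740.2 FPKM in LT and to 1357, 1085 and 772 FPKM in ST. Of these, 0 of 9 were called, against 0.579% of all genes. Neutrophil and platelet markers were lowest in ST replicate 2 (1.36 FPKM in sum, against 2.05 to 4.73 FPKM elsewhere), and so were erythroid markers (576 FPKM, against 677 to 1055 FPKM, nearly all of it HBB). Mitochondrial transcripts made up 3.31%, 2.91% and 4.25% of the fragments in LT and 8.06%, 6.15% and 8.48% in ST. The part of fibre type, vessels, nerve, satellite cells, tendon or RNA quality in the immediate early gene levels was not tested.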

How the data were processed

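The authors cleaned the reads of 6 rRNA-depleted, directional libraries (SOAPnuke), aligned them with HISAT2 to the Sscrofa11.1 genome and assembled transcripts with StringTie, whose version is not given in the sources used here. They deposited FPKM per transcript. Read counts and library depths were not used here. FPKM was summed per gene ID, symbols came from a table of Ensembl IDs, and genes with an mRNA transcript that passed FPKM 0.1 in 1 library or more entered limma 3.58.1 (R 4.3.3). The response was log2(FPKM + 0.1), the prior variance followed a trend, and p-values were adjusted by Benjamini-Hochberg. Genes were called at an adjusted p under 0.05 with a log2 fold change beyond 1 in either direction. Fold changes on this scale understate the change of low genes. Single genes were also compared by two-sided exact permutation tests in Python 3.11.15 with scipy 1.17.1. These tests took the libraries as unpaired and ignored the pig. The fit was tested on simulated data.

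Same-numbered LT and ST libraries come from 1 pig by the study's methods and the sample titles. Their residuals correlated (r = 0.301, 0.276 and 0.303), so the pig block was fitted as an alternative. The mean of other pairs was -0.147. Residuals were centred on the mean of 3 libraries, so that value largely follows from the same-pig values and adds no separate evidence. The genes and lists were chosen with earlier results of these data known. Named were every immediate early gene, the called genes (up to 6) and the 3 most abundant of each list, and the 5 genes with the most similar profile among those with mean FPKM above 1. A gene that the rule names is left unreported here. Replicate spread is that between 3 pigs.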

Additional observations from a re-analysis of the deposited data

How the results depend on the processing

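No gene of the 8 passed the threshold in 17 of 19 alternatives. With the pig as a replicate block 1 (MYC) was called, and with the replicate block without pig 2, ATF3 and MYC. Over all genes, 114 were called, and 31 with no filter on FPKM, 838 with the replicate block, 62 with quantile normalization, 31 without a variance trend, 53 with the most abundant transcript, 938 with library weights and 1476 with the replicate block without pig 2. Leaving out 1 library gave 11 to 1006 calls, the highest without ST replicate 2 and at most 23 without any other. The median SD of the 8 genes among libraries of a muscle was 1.0, and 0.40 (without ST replicate 2) to 1.11 when 1 library was left out. Their median log2 fold change was positive throughout, from 0.26 to 1.24, and that of all genes moved from 0.13 to -0.01 with quantile normalization.

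FOS, ATF3, EGR1, NR4A3 and MYC were higher in ST in all 19 alternatives. FOSB was at -0.063 with the most abundant transcript and ran from 0.23 (without ST replicate 1) to 1.37 (without ST replicate 3). JUNB ran from -0.41 to 0.18 when 1 library was left out, was positive without LT replicate 1 (0.07) or ST replicate 1 (0.18), and was at -0.44 with the replicate block without pig 2. NR4A1 ran from -0.43 to 0.74 when 1 library was left out, and was at -0.43 without ST replicate 2, -0.18 with library weights and -0.26 with the replicate block without pig 2. The cause of these shifts was not tested. IER2 was negative in all 9 alternatives computed for it, from -0.85 to -0.35, and was not fitted with a block. The fits over all gene IDs, with library weights and with the replicate block without pig 2 were added after the data were seen. The low levels of MYC, NR4A3 and IER2 rest on the fewest fragments, and no counting error could be given.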

Other observations

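Among 11270 genes with a mean FPKM above 1, those with the largest excess of ST replicate 2 over ST replicates 1 and 3 were looked up after their values were seen. ATF3 ranked 27th, NR4A3 56th, NR4A1 120th, MYC 176th, FOS 258th, JUNB 528th, EGR1 550th and FOSB 815th on this difference in log2 level. PVALB, the calcium buffer of fast fibres, ranked first at 0.0718, 49.1 and 0 FPKM in ST replicates 1, 2 and 3 and at 58.4, 38.4 and 1.67 FPKM in LT. The inducible chaperone HSPA6 was at 26.2, 149 and 12.7 FPKM in LT and at 0.658, 111 and 1.19 FPKM in ST, high in both muscles of pig 2. The cytokine IL6 was at 3.51, 9.40 and 0.640 FPKM in LT and at 0.0708, 11.2 and 0.133 FPKM in ST, with the same libraries highest. The stretch-responsive titin partner ANKRD1 was at 46.6, 18.4 and 79.3 FPKM in LT and at 24.5, 444 and 9.07 FPKM in ST. Unlike HSPA6 and IL6, ANKRD1 was low in the LT library of pig 2.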
